A study of Mus musculus with 8 samples.

Results

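The 6 genes described here are those that GABAergic interneurons of the olfactory bulb are commonly recognised by: Gad1 and Gad2, which encode the enzymes that make the inhibitory transmitter GABA from glutamate, Slc32a1, which encodes the vesicular transporter that loads GABA into synaptic vesicles, and Calb1, Calb2 and Pvalb, which encode the calcium-binding proteins calbindin, calretinin and parvalbumin. The members were taken as every noncontrol probe whose gene name in the array files was one of these 6, out of 34797 gene names on the array. They are represented by 9 of 55681 noncontrol probes, 1 each for Gad1, Gad2 and Calb2 and a pair each for Slc32a1, Calb1 and Pvalb.

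The bulb is the first relay of smell, and most of its neurons are inhibitory. Granule cells, which lie deep in the bulb, and periglomerular cells, which surround the glomeruli, both release GABA onto the mitral and tufted cells that carry the signal onward, and both are renewed through life from neuroblasts that migrate into the bulb. Calretinin and calbindin mark largely separate sets of periglomerular cells, calretinin is also found in granule cells, and parvalbumin is best known there from interneurons of the external plexiform layer.

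RNA came from the olfactory bulbs of male C57BL/6J mice in 4 groups. The mice lived in a standard cage and breathed clean air (C-C) or diesel exhaust (C-DE), or lived with environmental enrichment and breathed clean air (EE-C) or diesel exhaust (EE-DE). Enrichment was a larger cage with a running wheel and objects to explore, in which dams and pups lived from gestation onward, and the housing was kept after weaning at postnatal day 27. The exhaust was given for 8 h daily at a concentration of 90 µg/m3 during 28 days that ran through postnatal days 28 to 55, and all mice were killed at 56 days of age. The RNA of the mice of a group was pooled and the pool was divided over 2 arrays, so each group is 1 pool measured on 2 technical duplicates and the spread between mice was not measured.

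The 9 probes are 60 bases long and lie, on genome build mm9, at these positions, which the array files give without naming the exon or untranslated region. The Gad1 probe is at chr2:70439699-70439758 (plus strand) and the Gad2 probe at chr2:22549095-22549154 (plus strand). The Slc32a1 probes are at chr2:158441324-158441383 and chr2:158440166-158440225 (plus strand), and the Calb1 probes at chr4:15835078-15835137 and chr4:15833582-15833641 (plus strand). The Calb2 probe is at chr8:112678555-112678614 (minus strand) and the Pvalb probes at chr15:78021951-78022010 and chr15:78021549-78021608 (minus strand). Of the 3 forward reading frames, none was free of a stop codon in the Gad1 probe and in both Calb1 probes, and 1 to 3 were free of one in the other 6 probes.

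The sequences below show what was measured for Gad1, Gad2, Slc32a1, Calb2 and Pvalb, and those of the Calb1 probes are not printed. The Calb2 probe and the second Slc32a1 probe are printed whole and the others by their first 30 bases. Capitals in the Calb2 probe mark the codons, in its 1 open frame, that match the start of the calcium-binding loop of an EF hand (aspartate, any residue, asparagine, any residue, aspartate, glycine, any residue, isoleucine), the motif from which this protein family takes its calcium affinity.
Gad1: gagtgcccttaacataatgatttgaacata
Gad2: agtaacaggacaaagaagcaaaaacatcaa
Slc32a1, brighter probe: aaactcatcttgtgcaatgtatccggtcgt
Slc32a1, dimmer probe: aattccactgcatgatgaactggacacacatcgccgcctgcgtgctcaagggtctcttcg
Calb2: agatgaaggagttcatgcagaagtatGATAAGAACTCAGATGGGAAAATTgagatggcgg
Pvalb, brighter probe: agtttgtttgtgttattttttactccccca
Pvalb, dimmer probe: ctccaatgacactctatcaattgcttttga

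Expression is given as the processed signal divided by the 75th percentile of the noncontrol spots of the same array, on a log2 scale, so that 0 is the 75th percentile of an array. Signal on this scale depends on each probe's own binding, so levels are compared between pools for the same probe and not between probes. The total RNA of a whole bulb was measured, so fewer cells of a type and less RNA per cell cannot be told apart. All 8 arrays lay on 1 slide, with C-C and C-DE in one column and EE-C and EE-DE in the other, and with the clean-air pools in rows 1 and 2 and the diesel pools in rows 3 and 4. Slide column therefore cannot be told apart from housing, nor slide row from chamber. The first EE-DE array had the lowest share of noncontrol spots well above background, 56.7%, and the highest median background, 29 units, where the other 7 had 68.0 to 70.6% and 21 to 24 units.

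Of the 6 genes, 5 had a probe that passed all filters on signal, flags and accession, and these 5 are Gad1, Gad2, Slc32a1, Calb2 and Pvalb, with 7 probes among 21902 tested. Calb1 did not, because its brighter probe is named by an Ensembl transcript and not by a GenBank or RefSeq accession, and its dimmer probe was not well above background on all arrays. Calb1 is therefore described on the same scale, and its brighter probe was tested among the 30689 probes left without the accession filter.

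The Gad1, Gad2, Calb2 and brighter Pvalb probes varied less between pools than the median tested probe, and both Slc32a1 probes and the dimmer Pvalb probe varied more. Over the 4 pool means, Gad1 spanned 0.081 (log2), Gad2 0.091, Calb2 0.095, the Pvalb probes 0.12 (brighter) and 0.19 (dimmer), and the Slc32a1 probes 0.15 (brighter) and 0.27 (dimmer), beside a median of 0.13 over all tested probes. This median is over probes of all signal levels, and probes of like signal were not compared. No tested member changed by 1.5-fold (0.585 on the log2 scale) in any comparison, and the largest change of a brightest probe was 9.76%, a lower Slc32a1 signal in EE-DE than in C-C. The spread between duplicate arrays, which is technical and leaves out the spread between mice, was 0.025 to 0.041 (SD, log2, pooled over 4 pairs of arrays) for Gad1, Gad2, Calb2 and the brighter Slc32a1 probe and 0.14 for the brighter Pvalb probe, beside a median of 0.073 over all tested probes.

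**Figure D1:**
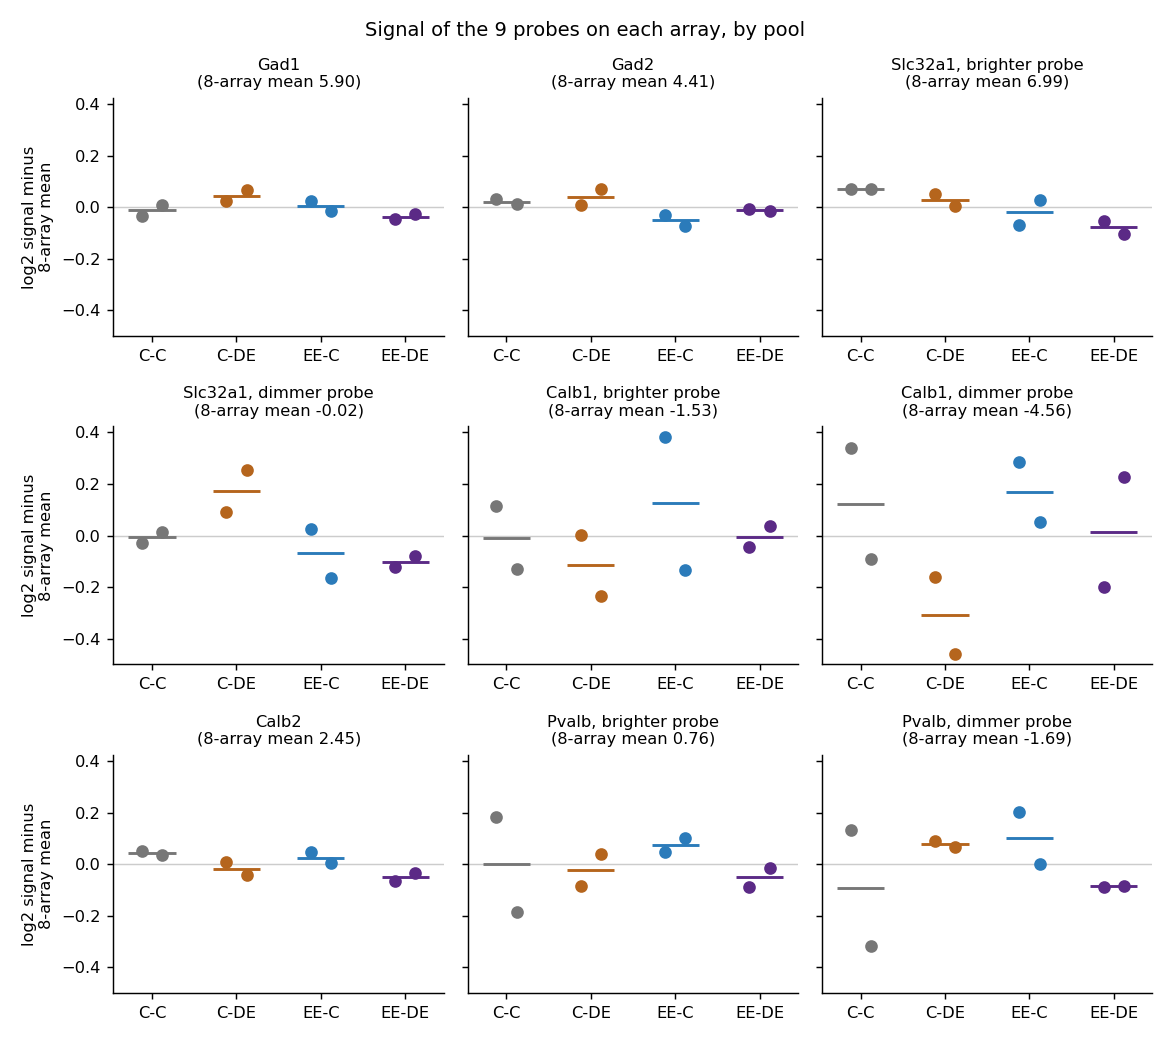
Signal of the 9 probes on the 8 arrays. Each panel is 1 probe, the y axis is the log2 signal minus that probe's mean over the 8 arrays, points are arrays and bars are means of the 2 arrays of a pool (C-C, grey; C-DE, brown; EE-C, blue; EE-DE, purple). The points of Gad1, Gad2 and Calb2 stay within a band of 0.11 to 0.14 (log2), while those of Calb1 and of the dimmer Pvalb probe spread over 0.52 to 0.80, also between duplicates.

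Gad1 encodes the larger GAD isoform, GAD67, which makes most of the basal GABA of a neuron. Its level was 5.86 and 5.90 on the C-C arrays, 5.92 and 5.96 on the C-DE arrays, 5.92 and 5.88 on the EE-C arrays and 5.85 and 5.87 on the EE-DE arrays. The C-DE arrays were the highest and the EE-DE arrays were among the lowest, and the C-C and EE-C arrays overlapped. In the standard cage, Gad1 was 3.98% higher in C-DE than in C-C (log2 0.056, 0.016 to 0.097 over the 4 pairings of a C-DE with a C-C array). With enrichment it was lower in EE-DE than in EE-C by 2.8% (log2 -0.041, -0.068 to -0.013), a value that was -0.014 after quantile normalization, -0.002 after local median correction and -0.023 with the first EE-C array left out. Neither pair of pools overlapped, so the gene differed in opposite directions under exposure in the 2 housings. The difference of the 2 effects was -0.097 (log2, enriched minus standard), and with 1 pool per group it could not be tested against the variation between mice.

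Gad2 encodes GAD65, the isoform held at nerve endings. Its level was 4.44 and 4.43 in C-C, 4.42 and 4.48 in C-DE, 4.38 and 4.34 in EE-C and 4.41 and 4.40 in EE-DE. All 4 arrays of the enriched pools were lower than all 4 arrays of the standard-cage pools. The difference was -0.073 (log2, -0.103 to -0.042 over pairings) in EE-C/C-C and -0.049 (-0.084 to -0.015) in EE-DE/C-DE, that is 4.91% and 3.37% lower, although with normexp background correction the first became 0.010 and the second 0. Under diesel exhaust Gad2 was 2.88% higher in EE-DE than in EE-C with no overlap (log2 0.041), whereas the C-DE and C-C arrays overlapped (log2 0.018). Single arrays moved these values: EE-DE/EE-C was at 0.063 or 0.019 with the first or second EE-C array left out, and with the second C-DE array left out EE-DE/C-DE was at -0.020 and C-DE/C-C at -0.012.

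Slc32a1 encodes the vesicular GABA transporter, which glycinergic neurons use as well. On its brighter probe the level was 7.06 on both C-C arrays, 7.04 and 6.996 in C-DE, 6.92 and 7.02 in EE-C and 6.94 and 6.89 in EE-DE. From highest to lowest, the pool means stood in the order C-C, C-DE, EE-C, EE-DE, in which C-DE overlapped EE-C and EE-C overlapped EE-DE. The signal was lower with enrichment in both chambers, by 6.08% in EE-C/C-C (log2 -0.090, -0.139 to -0.042) and by 7.12% in EE-DE/C-DE (log2 -0.107, -0.155 to -0.058), with no overlap of arrays. The size depended on the processing: EE-C/C-C was at -0.027 after quantile normalization, -0.021 after local median correction, and -0.043 or -0.138 with the first or second EE-C array left out, and EE-DE/C-DE was at -0.048 after quantile normalization, -0.16 with normexp and -0.19 with the mean of both probes.

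The dimmer Slc32a1 probe, printed whole above, lies upstream of the brighter one on the same transcript accession and did not follow it under diesel exhaust in the standard cage. Its level was -0.04 and -0.001 in C-C, 0.076 and 0.24 in C-DE, 0.010 and -0.18 in EE-C and -0.14 and -0.095 in EE-DE. In C-DE/C-C it was 13.2% higher (log2 0.18, 0.077 to 0.28) where the brighter probe was 2.84% lower (log2 -0.042, -0.065 to -0.018), both without overlap, although the brighter probe stood at 0.022 after quantile normalization and at 0.010 after local median correction. In EE-DE/EE-C the dimmer probe was at -0.032 and the brighter at -0.058, with overlapping arrays on both. In EE-DE/C-DE both probes were lower without overlap, by 17.2% (log2 -0.27) on the dimmer and by 7.12% on the brighter. The direction of Slc32a1 under diesel exhaust in the standard cage thus depended on the probe and the scaling, and its direction with enrichment in the exposed pools did not.

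Calb2, which encodes calretinin, was the 1 of 5 tested genes that was lower under diesel exhaust without overlap of arrays in both housings, which held for 6.19% of all tested probes. Its level was 2.50 and 2.49 in C-C, 2.46 and 2.41 in C-DE, 2.50 and 2.45 in EE-C and 2.38 and 2.41 in EE-DE. Both clean-air pools overlapped each other, as did both diesel pools, and within each housing the diesel arrays were lower than the clean-air arrays. The difference was -0.061 (log2, -0.093 to -0.030) in C-DE/C-C and -0.077 (-0.114 to -0.040) in EE-DE/EE-C, or 4.15% and 5.19% lower, and both values stayed negative under all 17 alternatives of processing or of arrays. They shrank to -0.023 and -0.030 with local median correction, and the first also to -0.033 with normexp and to -0.035 with the second C-DE array left out.

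Pvalb encodes parvalbumin, a slow calcium buffer of fast-spiking interneurons. On the brighter probe the level was 0.94 and 0.57 in C-C, 0.67 and 0.80 in C-DE, 0.80 and 0.86 in EE-C and 0.67 and 0.74 in EE-DE. The C-C duplicates lay further apart than any pool means did, and EE-DE/EE-C was the single comparison of this probe without overlap (log2 -0.12, 8.17% lower). The dimmer probe likewise gave less signal in EE-DE than in EE-C, without overlap (log2 -0.19, -0.29 to -0.084). In EE-DE/C-DE the dimmer probe was lower without overlap (-0.165, -0.178 to -0.152) where the brighter probe was at -0.029 with overlapping arrays, and in C-DE/C-C the dimmer was at 0.17 where the brighter probe was at -0.020, with overlapping arrays on both.

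Calb1, which encodes calbindin, had the largest spread between duplicate arrays among the members (SD 0.22 and 0.25, log2). Its brighter probe was at -1.42 and -1.66 in C-C, -1.53 and -1.77 in C-DE, -1.15 and -1.67 in EE-C and -1.58 and -1.49 in EE-DE, and the arrays overlapped in all 4 comparisons. The dimmer probe had processed signals of 20.4 to 34.9 units, where the median background of the arrays was 21 to 29 units, and was not well above background on the first EE-DE array. Its mean was -4.44 in C-C and -4.87 in C-DE, a difference of -0.43 (log2) with a range over pairings of -0.80 to -0.068, which the brighter probe did not share (-0.11, -0.35 to 0.13).

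**Figure D2:**
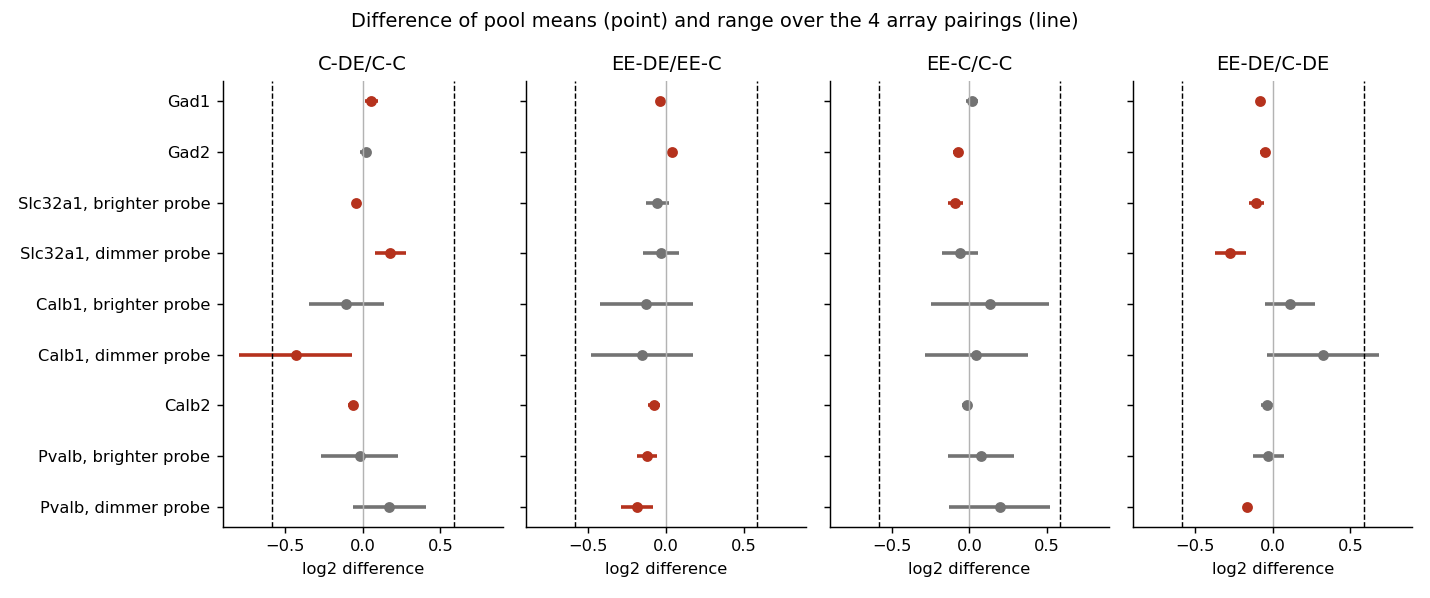
Differences of the 9 probes in the 4 comparisons that change 1 factor. The x axis is the log2 difference of pool means, points are the differences, lines span the 4 pairings of arrays, dashed lines mark 1.5-fold, and red marks comparisons whose arrays did not overlap. All points lie inside the dashed lines, and the widest lines are those of Calb1 and Pvalb.

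The first question of the design was what diesel exhaust changed in each housing. In C-DE/C-C, 0 of the 5 tested genes changed at least 1.5-fold by their brightest probe, beside 0.571% of all tested probes, and in EE-DE/EE-C 0 of 5 did so, beside 0.963%. Beside so low a background, 0 of 5 does not set these genes apart. The arrays of the 2 pools did not overlap for 3 of 5 genes in C-DE/C-C (Gad1 higher, Slc32a1 and Calb2 lower), where 40.9% of all tested probes did not overlap, and for 4 of 5 in EE-DE/EE-C (Gad2 higher, Gad1, Calb2 and Pvalb lower), where 34.2% did not. The median difference of the 5 genes in C-DE/C-C was -0.020 (log2), beside -0.006 over all tested probes. In EE-DE/EE-C it was -0.058, beside -0.007.

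The second question was what enrichment changed in each chamber. In EE-C/C-C, 0 of 5 genes changed at least 1.5-fold, beside 0.836% of all tested probes, and in EE-DE/C-DE 0 of 5, beside 0.639%. The arrays did not overlap for Slc32a1 and Gad2 in EE-C/C-C and for Slc32a1, Gad1 and Gad2 in EE-DE/C-DE, and all of these were lower with enrichment. Over all tested probes 37.8% and 42.2% did not overlap in the same comparisons. In EE-DE/C-DE the brightest probe of every tested member, 5 of 5, was lower, with a median of -0.049 (log2), a highest value of -0.029 and a median of 0.0 over all tested probes. Gad2 was at 0 in this comparison with normexp, and Pvalb was at 0.034 with the second C-DE array left out and at 0.008 with array 1 of EE-DE left out. In EE-DE/C-C, where both factors differ, 0 of 5 changed at least 1.5-fold, beside 0.813%, and the median was -0.049.

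The 4 pools were also fitted together with limma, with housing and chamber as additive terms. The departure from additivity served as the error, with 1 residual degree of freedom and moderated over all tested probes (2.63 prior degrees of freedom). With 1 pool per group, the p-values measure neither the spread between mice nor that between pools of the same group. For diesel exhaust over both housings, 0 of 7 member probes passed an adjusted p of 0.05, as did 0.0% of all tested probes, and 7.41% of all tested probes had an unadjusted p under 0.05, but no member probe. For enriched housing over both chambers the adjusted share was 0.0% as well, the unadjusted share was 9.69%, and again no member probe had an unadjusted p under 0.05.

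The intervals of this fit rest on that error and leave out the spread between mice, so they do not bound the effect of exhaust or housing. For diesel exhaust, the effect on Gad1 was 0.008 (log2, 95% interval -0.13 to 0.15, limma adjusted p = 0.975), on Gad2 0.029 (-0.093 to 0.15, limma adjusted p = 0.879) and on the brighter Slc32a1 probe -0.050 (-0.17 to 0.072, limma adjusted p = 0.786). Calb2 had the lowest p of the tested members, with an effect of -0.069 (-0.19 to 0.053, limma adjusted p = 0.717), and the brighter Pvalb probe was at -0.072 (-0.22 to 0.073). For enriched housing, the brighter Slc32a1 probe was at -0.099 (-0.22 to 0.023, limma adjusted p = 0.541) and the dimmer at -0.17 (-0.37 to 0.033, limma adjusted p = 0.537), while Gad2 was at -0.061 (-0.18 to 0.061) and Gad1 at -0.032 (-0.17 to 0.11). Every interval of the 7 tested probes lay inside 1.5-fold in both directions. The brighter Calb1 probe, among the probes left without the accession filter, was at -0.12 for diesel exhaust (-0.25 to 0.018, limma adjusted p = 0.673) and at 0.12 for housing (-0.015 to 0.26, limma adjusted p = 0.529).

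**Figure D3:**
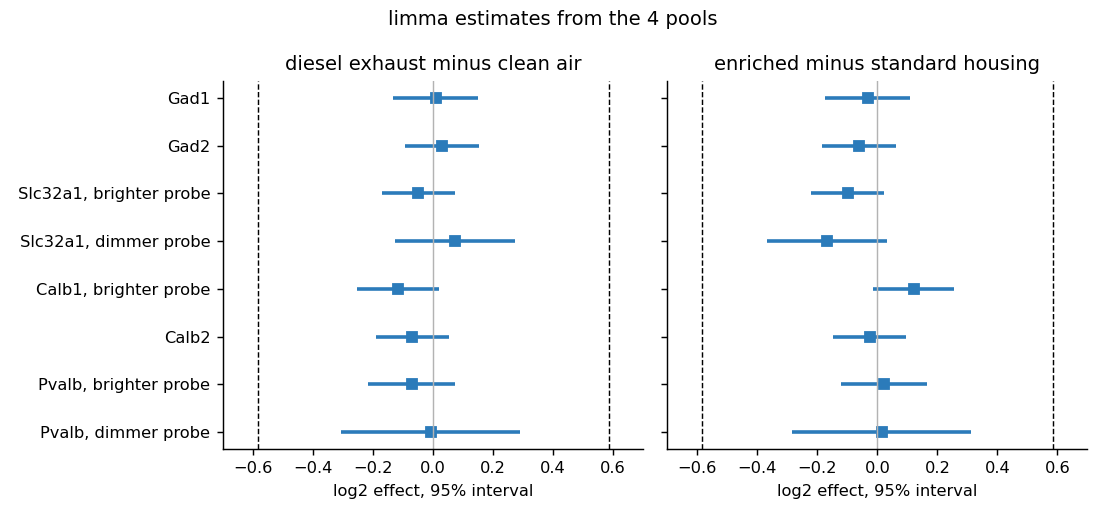
limma estimates of the additive effects of diesel exhaust and of enriched housing for the 7 tested probes and the brighter Calb1 probe. The x axis is the log2 effect, squares are estimates, lines are 95% intervals and dashed lines mark 1.5-fold. Every interval crosses 0 and lies inside the dashed lines.

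The other genes of GABA handling were read from lists. The list of 14 genes for GABA and glutamine metabolism and transport, all 14 of them measured, holds Abat, the transaminase that breaks GABA down, the plasma membrane GABA transporter Slc6a11, and Glul, the glutamine synthetase of astrocytes. None changed at least 1.5-fold or had a limma adjusted p under 0.05, which sets neither this list nor the following ones apart, since 0.571 to 0.963% of all tested probes passed 1.5-fold in a comparison and 0.0% passed the adjusted p. In EE-DE/EE-C, 13 of 14 were lower with a median of -0.043 (log2), but the arrays did not overlap for 3 of them, a smaller share than the 34.2% of all tested probes. In C-DE/C-C 7 were higher and 7 lower, with a median of -0.001. Abat was at 0.050 in C-DE/C-C, at -0.15 in EE-DE/EE-C and at -0.19 in EE-DE/C-DE.

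On the receiving side of the synapse, all 15 genes of the inhibitory postsynapse were measured, among them subunits of the GABA-A receptor, the scaffold gephyrin (Gphn) and the chloride transporters Slc12a2 and Slc12a5. None passed 1.5-fold in any comparison or a limma adjusted p of 0.05. In C-DE/C-C the list's median was 0.027 (log2), and its values ran from -0.28 for Gabra3 to 0.13 for Gabrb2. In EE-DE/EE-C it was 0.011, and the values ran from -0.14 for Slc12a5 to 0.23 for Gabra2.

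Of 22 transcription factors of bulb interneurons and their precursors, such as the Dlx genes, Meis2, Sp8 and Pax6, 20 were measured and none passed 1.5-fold. Under diesel exhaust the list had a median of -0.007 (log2) in each housing, and in EE-DE/EE-C the arrays did not overlap for 3 lower genes and 1 higher gene of the 20, beside 34.2% of all tested probes. In C-DE/C-C they did not overlap for 6 lower and 3 higher genes, beside 40.9%. In EE-DE/C-DE 13 of the 20 were lower, with a median of -0.052. The arrays did not overlap for 11 lower and 3 higher genes, where 42.2% of all tested probes did not overlap. Among 14 subtype markers, none passed 1.5-fold. Th, which encodes tyrosine hydroxylase of the dopaminergic periglomerular cells, differed by -0.001 (log2) between C-DE and C-C and by -0.010 between EE-DE and EE-C. Sst, which encodes somatostatin, differed by 0.15 and 0.21. The highest value of this list was 0.44 for Nos1, the neuronal nitric oxide synthase, in EE-C/C-C, with overlapping arrays and a range over pairings of -0.002 to 0.88.

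Calb1, Calb2 and Pvalb belong to the EF-hand family, of which 21 of 23 other members were measured. None of the 21 passed 1.5-fold, and the list's median was -0.001 (log2) under diesel exhaust in the standard cage, and 0.007 with enrichment. Scgn, which encodes secretagogin, another calcium-binding protein of bulb interneurons, was at 0.005 and 0.054 in the same comparisons. Unlike the 5 tested members, 12 of the 21 were higher in EE-DE/C-DE; the difference between the lists was not tested. In the limma fit, no gene of the 5 related lists had an adjusted p under 0.05, and for diesel exhaust the unadjusted p was under 0.05 for Gabra2, Lhx6 and Sst, all of them higher.

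Markers of other cells were measured beside these genes. Of 8 markers of mitral and tufted cells, the targets of the GABAergic cells, 7 were measured, with medians of 0.041 (log2) for C-DE/C-C, 0.006 for EE-DE/EE-C and no change of 1.5-fold. No marker of astrocytes, oligodendrocytes, microglia, endothelium, migrating neuroblasts or the neighbouring cortex and striatum passed 1.5-fold either. For microglia, the arrays did not overlap for 3 lower and 1 higher of 6 markers in C-DE/C-C (median -0.067), beside 40.9% of all tested probes. In EE-DE/EE-C the counts were 3 lower and 1 higher (median -0.015), beside 34.2%. The summed level of the 6 was 71.1 to 78.6 times the 75th percentile in C-C and 65.1 to 65.4 in C-DE. With enrichment it was 69.9 to 70.7 in EE-C and 67.0 to 67.6 in EE-DE. In EE-C/C-C, where Gad2 and Slc32a1 were lower, the arrays did not overlap for 4 higher and 2 lower of the 8 measured cortex and striatum markers (median 0.12) and for 1 higher and 3 lower of 5 endothelium markers (median -0.064), beside 37.8% of all tested probes. The unadjusted housing p of limma was under 0.05 for Adora2a and Drd1a (lower) and Rasgrf2 (higher) among the former and for none of the latter, and the part of these tissues in the members' differences was not tested. Of the cortex and striatum list 8 of 10 were measured, with a summed level of 3.61 to 3.91 times the 75th percentile in C-C and 3.82 to 4.05 in the other pools.

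Of 8 measured markers of the olfactory mucosa, which lies outside the bulb, 5 moved by far more than any member in C-DE/C-C and EE-DE/C-DE. All 8 measured markers were lower in C-DE/C-C, 5 of them by at least 1.5-fold without overlap, with a median of -1.14 (log2). The 5 were Cyp2g1 (-1.59), Krt8 (-1.40), Krt18 (-1.25), Ugt2a1 (-1.20) and Cyp2f2 (-1.08), which encode enzymes and keratins of supporting cells and glands. The same 5 were higher in EE-DE/C-DE without overlap, by 1.59 to 2.19. In EE-DE/EE-C all 8 were higher, with a median of 0.58, and their arrays overlapped. The sensory neuron genes of the list, whose axons enter the bulb, were closer to 0 in C-DE/C-C (Adcy3 -0.057, Omp -0.13, Cnga2 -0.51). The summed level of the 8 was 64.5 to 78.0 times the 75th percentile in C-C, 58.2 to 67.1 in C-DE, 67.7 to 76.3 in EE-C and 73.2 to 79.9 in EE-DE. By their brightest probes the 5 tested members were at most 0.061 (log2) from 0 for C-DE/C-C and 0.107 for EE-DE/C-DE, and the dimmer Slc32a1 probe was at 0.18 and -0.27. These shifts are smaller than those of the 5 markers, and the part of this tissue in their small differences was not tested.

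**Figure D4:**
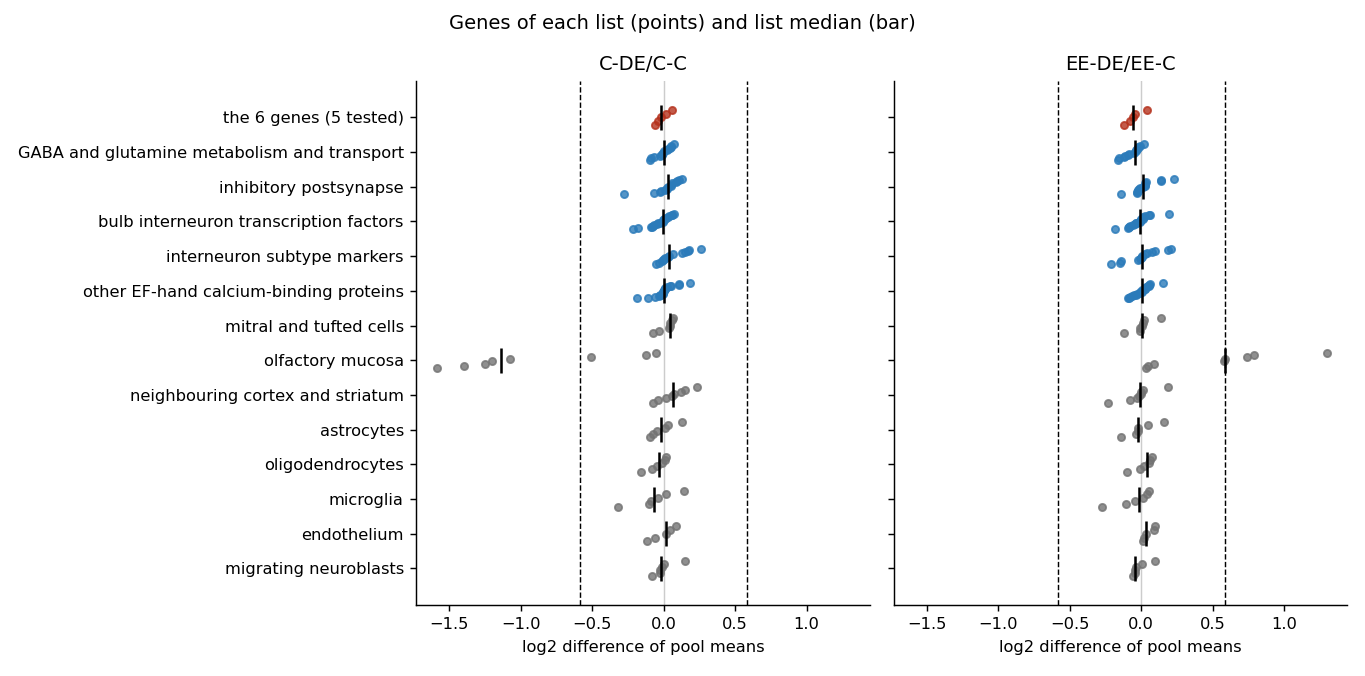
log2 differences of the genes of each list in C-DE/C-C (left) and EE-DE/EE-C (right). Points are genes by their brightest tested probe, bars are list medians and dashed lines mark 1.5-fold (red, the members; blue, related lists; grey, markers of other cells). The members and the related lists lie inside the dashed lines, and only markers of the olfactory mucosa lie outside them.

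The 5 tested members were compared with each other over the 8 arrays. Across arrays, of which 2 share each pool, Pearson's r between members ran from -0.13 for Gad2 with Calb2 to 0.50 for Slc32a1 with Calb2, and was 0.45 for Gad1 with Gad2. Among all tested probes, the genes whose log2 levels were most like those of a member were Gspt2, Hnrnpa3 and Phf1 for Gad1 (r = 0.95, 0.94 and 0.93), Lgals6, Hnrnpa2b1 and Gtf3c2 for Gad2 (0.96, 0.96 and 0.95) and Nup93, Vps8 and Nup188 for Slc32a1 (0.98, 0.97 and 0.96). For Calb2 they were Eef1a1, Ppp6r2 and Clpb (0.97, 0.97 and 0.96) and for Pvalb Gpn2, Cdh7 and Rock2 (0.97, 0.97 and 0.96). These are the highest of 21902 correlations over 8 arrays and describe the arrays alone.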

How the data were processed

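Single-colour Agilent mouse gene expression arrays were scanned and processed with Feature Extraction 10.7.3.1 (build mm9, per the file headers). The deposited intensity values are the software's background-subtracted, spatially detrended signals without scaling across arrays. The series table holds log2 values deposited by the authors, which follow the log2 signal minus the 75th percentile, centred on each probe's median (99.4% of tested probes within 0.02 after the same steps).

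Here the log2 processed signal minus each array's 75th percentile over noncontrol spots was used. Probes with a GenBank or RefSeq accession, well above background on all 8 arrays and without an outlier flag were kept (21902 probes), and duplicate spots were averaged. A gene was read from its brightest kept probe and called at 1.5-fold. limma 3.58.1 (R 4.3.3) was fitted to 4 pool means (avearrays, lmFit, eBayes, Benjamini-Hochberg over all tested probes) and tested on simulated data. Other work used Python 3.11.15, numpy 2.4.6 and pandas 2.3.3. Each pool has 2 arrays of 1 RNA, so duplicates measure technical spread. The number of arrays limits the precision. The members and gene lists were chosen with earlier results of these data known. All members are named. Other list genes are named where they passed 1.5-fold without overlap of arrays, or as examples or extremes chosen after their values were seen, and some list genes are not reported here by name. Alternatives were normexp background correction, quantile normalization, median scaling, the series table, a looser signal flag, no accession filter, flagged spots kept, the mean over probes, local median correction, an intensity trend in eBayes, a 2-fold threshold and leaving out each array.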

Additional observations from a re-analysis of the deposited data

Results flagged for a closer look

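Gad1 differed in opposite directions under diesel exhaust in the 2 housings. Both C-DE arrays were higher than both C-C arrays (log2 0.056), and both EE-DE arrays were lower than both EE-C arrays (log2 -0.041), which gives a difference of the effects of -0.097. The difference was not tested. In these comparisons 40.9% and 34.2% of all tested probes did not overlap, so lack of overlap alone does not set Gad1 apart. The share not overlapping in opposite directions was not computed. Over 17 alternatives, the C-DE/C-C value ran from 0.036 to 0.088, the EE-DE/EE-C value from -0.059 to -0.002 and their difference from -0.118 to -0.073. With 2 arrays in a group, no single array could be examined as an outlier.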

How the results depend on the processing

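No paired analysis was possible because arrays 1 and 2 of a group are technical duplicates of 1 pool and were averaged before the fit. Under all 17 alternatives with their own values, and at 2-fold, 0 members passed the threshold in any comparison, and under these and the intensity trend 0 passed a limma adjusted p of 0.05 (lowest 0.492 for diesel exhaust and 0.219 for housing). With 4 pools no tested probe on the array passed under any setting, so this says nothing about the stability of the members. Of 180 differences of the 5 tested members under another processing, 171 had the sign of the main value, as did 151 of 160 with 1 array left out, and the values ran from -0.19 to 0.13 and from -0.20 to 0.26. Beside the turns given with the genes, Slc32a1 in C-DE/C-C was at 0.068 with the mean of its probes, in which the dimmer probe counts as much as the brighter, and Gad1 in EE-C/C-C turned from 0.016 to -0.015 with quantile normalization. The cause of the other turns was not tested. Pvalb in C-DE/C-C ran from -0.20 to 0.16, the ends being the values without the second and the first C-C array. Unadjusted limma p-values of member probes under 0.05 arose under some alternatives. For housing they were 0.0313 (intensity trend) and 0.0249 (normexp) on the brighter Slc32a1 probe, and 0.0298 (intensity trend) and 0.0175 (first EE-C array left out) on the dimmer. For diesel exhaust they were 0.0407 (normexp) and 0.0374 (second C-C array left out) on the brighter Pvalb probe. Of 21902 tested probes, the unadjusted limma housing p was under 0.05 for 1356 higher and 1281 lower with the intensity trend. The counts were 2400 and 1756 with normexp, and 1095 and 1154 with the first EE-C array left out. For diesel exhaust they were 1199 higher and 995 lower with normexp, and 640 and 991 with the second C-C array left out. With the looser signal flag, the interval of the dimmer Calb1 probe for diesel exhaust reached -0.61, past 1.5-fold.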
